A study of Sus scrofa with 32 samples.

Results

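The 6 genes described here are protein-coding genes of the pig mitochondrial genome: COX1, COX2 and COX3, which encode the core subunits of cytochrome c oxidase (complex IV), ATP8 and ATP6, which encode subunits of ATP synthase (complex V), and CYTB, which encodes cytochrome b of complex III. They were chosen by name and Ensembl identifier, not by their values, and are 6 of the 31908 genes listed in the deposited count tables. All 6 passed the filter on low counts in every comparison. RNA was sequenced from liver and fat of female Złotnicka White pigs, which were 180 days old and shared feed and housing. The libraries form 4 groups of 8: liver of pigs with high fat content (HFD), liver of pigs with low fat content (LFD), fat of HFD pigs and fat of LFD pigs. The pigs came from several farms, and the HFD and LFD pigs were picked by fat measured after slaughter, so the fat groups are a selection on a trait and not a treatment. The labels name the second tissue only as fat, without a depot, and do not say which liver and fat library came from the same pig.

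The mitochondrial genome is a small circular DNA present in many copies per cell. It is transcribed into long precursor RNAs that are cut, mostly at tRNAs, into mRNAs, which are translated inside the mitochondrion. The products join nuclear-encoded subunits in the respiratory chain: complex III passes electrons to cytochrome c, complex IV passes them to oxygen, and ATP synthase uses the resulting proton gradient to make ATP. Liver is rich in mitochondria, while white adipocytes hold most of their volume as a lipid droplet.

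All 6 genes lie on the plus strand of the mitochondrial chromosome (MT) of Sscrofa11.1, and the positions are those of its RefSeq record. COX1 (ENSSSCG00000018075) spans MT 6511 to 8055, with a coding length of 1545 bases, and COX2 (ENSSSCG00000018078) spans MT 8203 to 8890, with 688 bases. ATP8 (ENSSSCG00000018080) is the shortest, at MT 8959 to 9162 with 204 bases. ATP6 (ENSSSCG00000018081) spans MT 9120 to 9800, with 681 bases, COX3 (ENSSSCG00000018082) MT 9800 to 10583, with 784 bases, and CYTB (ENSSSCG00000018094) MT 15342 to 16481, with 1140 bases. ATP8 and ATP6 share 43 bases and are read in different frames, and ATP6 and COX3 share 1 base, so ATP8, ATP6 and COX3 follow each other without a gap. The stretches below, from the RefSeq genome, show where ATP8 starts and where the genes share bases. A read from the shared bases fits both genes. The first stretch, the ATP8 start, holds no base shared with COX2 or ATP6. In each, capitals mark the start codon named, or the stop codon of ATP8.
ATP8 start, chrMT:8946-8974: tcccctcaatggtATGccacaactagata
ATP6 start inside ATP8, chrMT:9107-9135: cttgagaaataaaATGaacgaaaatctat
ATP8 stop inside ATP6, chrMT:9147-9175: attgcccccacgaTAAtaggactacctat
ATP6 and COX3 junction, chrMT:9787-9815: acgacaatacataATGacccaccaaacac
How reads over the shared bases were divided is not given in the sources used here, and the counts of ATP8 are uncertain for this reason. Nuclear copies of mitochondrial sequence can also take reads from these genes.

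Liver libraries held 19837882 to 30457374 counts and fat libraries 9409976 to 19484621. The labelled tissues carried their markers: all 7 hepatocyte markers tested were higher in liver and all 6 adipocyte markers were higher in fat (edgeR, adjusted p under 0.05). Of the other cell types, 4 of 4 fibroblast and 2 of 2 endothelial markers were higher in fat. So was CKM, the 1 of 3 skeletal muscle markers with enough counts to test. In liver, 3 of 3 leukocyte and 2 of 2 erythrocyte markers tested were higher. LEP, at 0 counts in 12 of 16 livers, and CKM, at 0 in 5 of 16, passed the filter on low counts through fat. SERPINA1, with a median share of 3.17e-05% in fat, passed it through liver. ADIPOQ, LPL and FABP4 were also sparse in liver, with median shares of 3.98e-05%, 4.67e-05% and 6.73e-05%. In the comparison within liver, only 4 of the 6 adipocyte markers had enough counts to test. The calls of all these sparse markers rest on few counts in the other tissue. The summed share of the adipocyte markers lay between 0.000877% and 0.00604% of counts in livers, and that of the hepatocyte markers between 0.0154% and 0.0448% in fat. In 3 libraries a few genes took an unusually large part of the counts, and these are called the libraries that stood apart. The 10 most counted genes took 80.9% of counts in fat HFD replicate 2, 47.2% in liver LFD replicate 7 and 42.2% in fat LFD replicate 4, against 18.7% to 28.3% in all others. The fat libraries were sequenced on lane 5 and the livers in 2 runs on lanes 4 and 6, so tissue and lane cannot be told apart. In whole tissue, more cells of a type and more RNA per cell cannot be told apart either.

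A larger part of the RNA counts belonged to the 6 genes in fat than in liver. Together they held a median of 8.77% of all counts in fat (range 0.498% to 11.9%, n = 16) and 3.91% in liver (1.98% to 5.51%, n = 16), a fold of medians of 2.24. Fat HFD replicate 2, at 0.498%, was below every liver, and the other 15 fat libraries were all above every liver. With totals taken without 6 other genes that swelled in single libraries (more than 1% of the counts there and more than 4 times their median share in that tissue), the 6 mitochondrial genes held 2.26% in fat HFD replicate 2, still below the 6.90% to 12.9% of the other HFD fat libraries.

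COX1, the catalytic subunit of complex IV, had the largest share of the 6 in both tissues. It took 0.702% to 1.84% of counts in livers (median 1.33%) and 0.268% to 4.53% in fat (median 3.38%), and by mean share it ranked 6 of all genes in liver and 3 in fat. COX3, another core subunit of complex IV, took 0.542% to 1.58% in livers (median 1.11%) and 0.0805% to 2.81% in fat (median 2.15%). ATP6, the subunit of ATP synthase that forms part of the proton channel, took 0.325% to 0.903% in livers (median 0.633%) and 0.0791% to 2.05% in fat (median 1.71%). CYTB took 0.196% to 0.475% in livers (median 0.349%) and 0.0378% to 1.22% in fat (median 0.758%). For these 4 genes the only fat library that overlapped the livers was HFD replicate 2.

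COX2, the subunit that receives electrons from cytochrome c, took 0.215% to 0.691% in livers (median 0.439%) and 0.0321% to 1.33% in fat (median 0.834%). For COX2, 13 of 16 fat libraries were above every liver. The counts assigned to ATP8, a small subunit of ATP synthase, were far below those of the others. Its share was 0.00108% to 0.0315% in livers (median 0.00291%) and 0.000298% to 0.0804% in fat (median 0.00892%). Its ranges overlapped widely, with 4 of 16 fat libraries above every liver. The fold of the medians, fat over liver, was 3.06 for ATP8, 2.70 for ATP6, 2.54 for COX1, 2.17 for CYTB, 1.94 for COX3 and 1.90 for COX2. Over all 32 libraries, 0 of the 6 genes were free of overlap between the tissues. Without fat HFD replicate 2, a choice made after the data were seen, COX1, ATP6, COX3 and CYTB had every fat library above every liver, which also held for 29.3% of the 14324 genes tested (12.2% with that library).

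**Figure D1:**
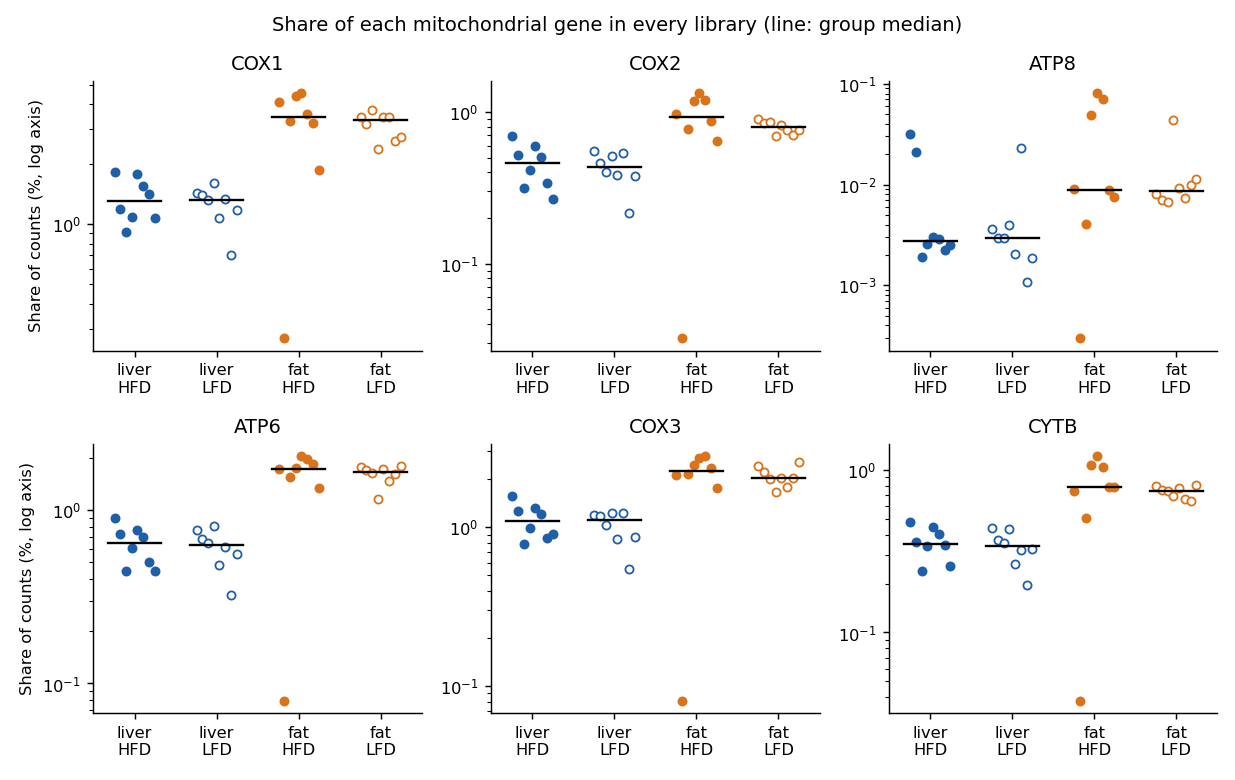
Share of each of the 6 genes in all counts of a library, in percent on a log axis, for 8 libraries in each of 4 groups (filled points HFD, open points LFD, line at the group median). The fat points lie above the liver points for COX1, ATP6, COX3 and CYTB except for the single low point of fat HFD replicate 2, and a few libraries stand high in ATP8.

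Per length the order of the genes was alike in both tissues. As median CPM per kilobase of coding length, COX3 led in liver with 14095, followed by ATP6 with 9288, COX1 with 8616, COX2 with 6382, CYTB with 3060 and ATP8 with 143. In fat the order was COX3 with 27391, ATP6 with 25082, COX1 with 21863, COX2 with 12122, CYTB with 6647 and ATP8 with 437. The place of ATP8 in this order is uncertain, since how reads over the bases it shares with ATP6 were divided is not given. Within single libraries, COX1 was above COX2, COX2 above CYTB and CYTB above ATP8 in 16 of 16 livers and 16 of 16 fat libraries. COX3 was above ATP6 in 16 livers and in 15 fat libraries, fat HFD replicate 2 being the exception. ATP6 and COX1 were not separable, since ATP6 was the higher of the pair in 13 livers and in 11 fat libraries. Across libraries the ranges of neighbours in this order overlapped in both tissues, except CYTB and ATP8 in liver, where the lowest CYTB value was 1720 and the highest ATP8 value 1546.

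The size of the tissue difference depended on what the counts were scaled by. With TMM, which scales libraries to centre the typical log ratio of genes between them, COX1, ATP6 and CYTB were lower in liver by the quasi-likelihood test of edgeR, and the other 3 did not pass. The log2 fold change, liver over fat, was -0.62 for ATP6 (SE 0.19, adjusted p = 0.00355), -0.58 for COX1 (SE 0.19, adjusted p = 0.00664) and -0.40 for CYTB (SE 0.19, adjusted p = 0.0484). The CYTB call was lost with limma-voom (adjusted p = 0.272) and with the replicate number as a block in edgeR (adjusted p = 0.113). It was -0.91 for ATP8 (SE 0.54, adjusted p = 0.123), -0.26 for COX3 (SE 0.20, adjusted p = 0.246) and -0.20 for COX2 (SE 0.21, adjusted p = 0.377). These 3 of 6 calls, all lower in liver, stand beside 79.4% of the 14324 genes called in this comparison, 38.5% of all being lower in liver, and the median of the 6 was -0.49 beside 0.02 for all genes.

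Scaling by total counts, which tests the shares themselves, called all 6 genes lower in liver, with log2 fold changes from -1.54 for ATP8 (SE 0.59) to -0.91 for COX2 (SE 0.25). The median of the 6 was then -1.19, but this scaling also moved the median of all genes to -0.64 and called 81.7% of genes, 60.7% of all being lower in liver. Without the 3 libraries that stood apart, TMM called COX1, ATP6, COX3 and CYTB, beside 80.7% of genes called and 40.4% lower in liver. COX1 and ATP6 were called in every one of the 32 fits that left out a single library. Without fat HFD replicate 2, COX3 (-0.38, adjusted p = 0.00737) and COX2 (-0.33, adjusted p = 0.0395) were called too. ATP8 was called without liver HFD replicate 1 (-1.32, adjusted p = 0.0262) or liver LFD replicate 6 (-1.46, adjusted p = 0.0113). The call of CYTB was lost in 16 of the 32 fits, with adjusted p from 0.0526 to 0.0949, namely those without liver HFD replicates 3 or 8, liver LFD replicates 5, 7 or 8, fat HFD replicates 1, 4, 5, 6 or 7, or fat LFD replicates 1, 2, 3, 4, 5 or 8.

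**Figure D2:**
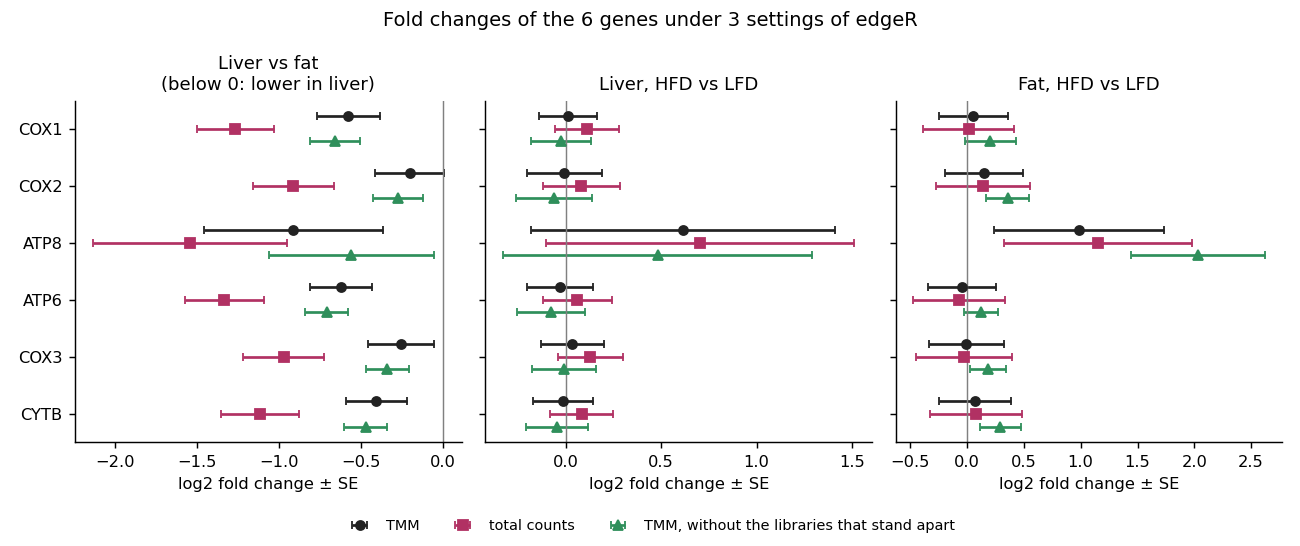
Log2 fold change with its standard error for each of the 6 genes in 3 comparisons of edgeR, with TMM scaling, total count scaling, or TMM without the libraries that stood apart (3 for the tissues, 1 in liver, 2 in fat). All liver over fat values are below 0 and those under total counts lie furthest left, while most HFD over LFD values lie near 0 and ATP8 has the widest errors.

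The make-up of the 6-gene sum also differed between the tissues, and this measure does not depend on how libraries are scaled. COX3 made up 28.1% ± 1.67 of the sum in liver and 24.4% ± 3.12 in fat (SD, n = 16 each), and COX2 11.6% ± 1.12 and 9.65% ± 1.10. ATP6 made up less in liver, 16.4% ± 1.01, than in fat, 18.6% ± 1.61, and so did COX1, with 34.6% ± 2.55 and 38.2% ± 5.66. A two-sided permutation test with 100000 resamples, chosen after the data were seen, gave p = 3e-05 for COX2, 7e-05 for ATP6, 0.00012 for COX3 and 0.0207 for COX1, unadjusted for the 6 tests. CYTB, at 9.19% ± 0.613 in liver and 8.89% ± 1.40 in fat, gave a permutation p = 0.447, and ATP8, at 0.161% ± 0.195 and 0.223% ± 0.239, gave p = 0.408. Without fat HFD replicate 2 the 4 genes stayed under 0.05 in the permutation test, COX1 with p = 0.0431 and the other 3 with 0.00011 or less. Libraries of the tissues overlapped for every gene.

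**Figure D3:**
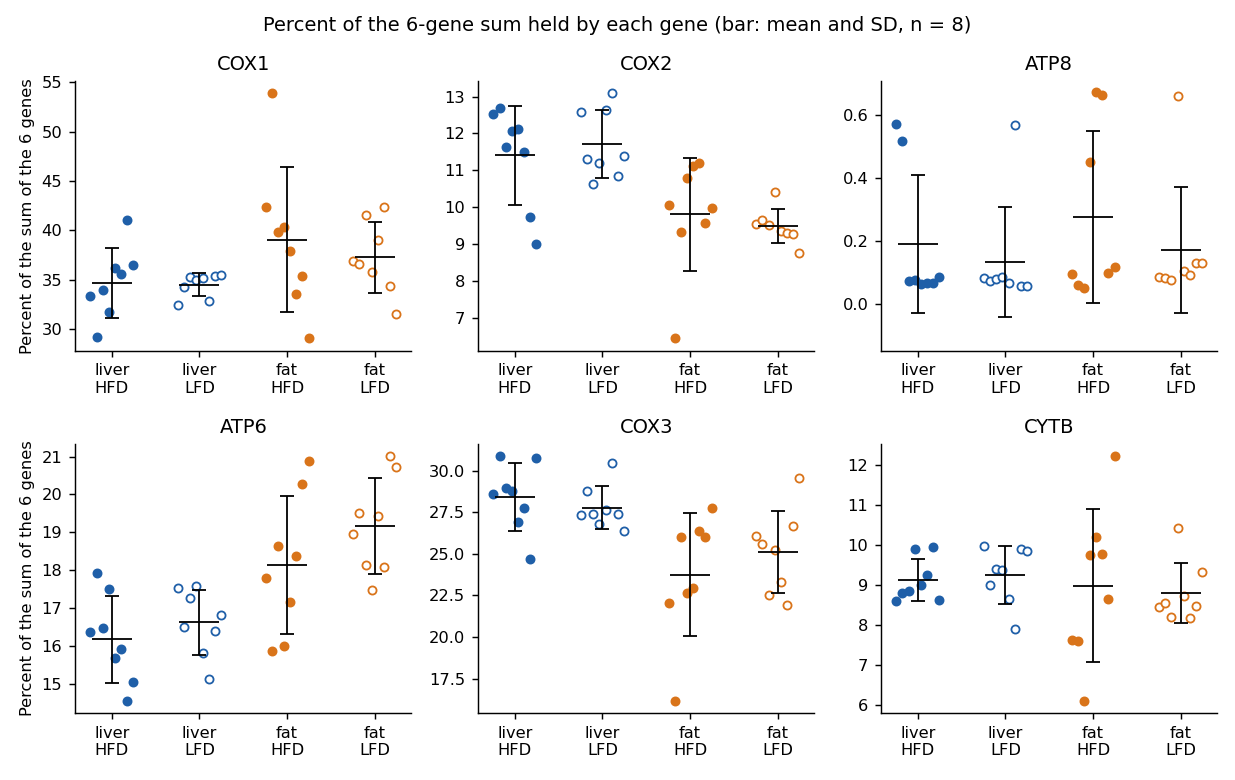
Percent of the summed counts of the 6 genes held by each gene in every library of the 4 groups (filled points HFD, open points LFD, bar and whiskers mean and SD, n = 8). COX2 and COX3 sit higher in liver and ATP6 higher in fat, while HFD and LFD points of a tissue intermingle.

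Between HFD and LFD livers the shares of the 6 genes were not distinguishable. The sum took 2.71% to 5.51% of counts in HFD livers (median 3.77%) and 1.98% to 4.61% in LFD livers (median 3.91%). COX1 took 0.920% to 1.84% in HFD livers (median 1.31%) and 0.702% to 1.61% in LFD livers (median 1.33%), and COX3 0.784% to 1.58% (median 1.10%) and 0.542% to 1.24% (median 1.11%). The groups overlapped for all 6 genes. In edgeR, 0 of 6 passed, beside 0% of the 13051 genes tested, of which 754 had an unadjusted p under 0.05; DESeq2 called 6 genes and limma-voom 1, in each case 0 of the 6. The log2 fold changes, HFD over LFD, were 0.01 for COX1 (SE 0.15), -0.01 for COX2 (SE 0.20), -0.03 for ATP6 (SE 0.17), 0.03 for COX3 (SE 0.17) and -0.02 for CYTB (SE 0.16). ATP8 had 0.61 (SE 0.80), an estimate that ran from -0.10 to 1.60 as single livers were left out. The exact permutation test of mean shares called 0 of 13051 genes (917 at an unadjusted p under 0.05), and the 6 genes had unadjusted p from 0.476 for COX3 to 0.748 for ATP6.

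In fat the HFD libraries spread more widely than the LFD libraries. The sum took 0.498% to 11.9% in HFD fat (median 9.39%) and 6.64% to 9.38% in LFD fat (median 8.71%), and the next lowest HFD library after replicate 2 held 6.40%. COX1 took 0.268% to 4.53% in HFD fat (median 3.44%) and 2.38% to 3.74% in LFD fat (median 3.32%), and COX2 0.0321% to 1.33% (median 0.921%) and 0.691% to 0.896% (median 0.794%). LFD fat thus lay within the span of HFD fat for these genes. In edgeR, 0 of 6 passed, beside 0% of the 13082 genes tested, with 870 at an unadjusted p under 0.05; DESeq2 called 50 genes and limma-voom 1, with 0 of the 6 among them. The log2 fold changes were 0.05 for COX1 (SE 0.30), 0.15 for COX2 (SE 0.34), 0.99 for ATP8 (SE 0.75), -0.04 for ATP6 (SE 0.30), -0.01 for COX3 (SE 0.33) and 0.07 for CYTB (SE 0.32). The exact permutation test called 0 of 13082 genes (532 at an unadjusted p under 0.05), with unadjusted p for the 6 genes from 0.272 for ATP8 to 0.959 for COX1.

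Without fat HFD replicate 2 and fat LFD replicate 4, the errors in fat were smaller and all 6 estimates lay above 0, but 0 passed. They were then 0.21 for COX1 (SE 0.22), 0.36 for COX2 (SE 0.19), 0.12 for ATP6 (SE 0.15), 0.18 for COX3 (SE 0.16) and 0.29 for CYTB (SE 0.18). ATP8 reached 2.03 (SE 0.59), with an unadjusted p of 0.00331 and an adjusted p of 0.485 in edgeR. DESeq2 without fat HFD replicate 2 alone, a choice made once the data were seen, called 86 genes in fat and 0 of the 6. Fat LFD replicate 4, left out of the first of these fits, is the LFD library with the highest ATP8 share.

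A difference between the tissues in how HFD and LFD pigs compared was not detectable. In the edgeR test of this interaction 0 of 6 genes passed, beside 0% of the 14324 genes (896 at an unadjusted p under 0.05). DESeq2, which gave an adjusted p for 2117 genes only, called 40, with 0 of the 6 among them. The edgeR estimates ran from -0.36 for ATP8 (SE 1.08) and -0.15 for COX2 (SE 0.42) to 0.05 for COX3 (SE 0.40). In the make-up of the sum, 0 of 12 exact permutation tests of HFD against LFD (6 genes in 2 tissues) had p under 0.05, with the smallest p at 0.203 for ATP6 in fat, 18.1% ± 1.82 in HFD and 19.2% ± 1.26 in LFD (SD, n = 8 each). Without fat HFD replicate 2 and fat LFD replicate 4, COX2 made up 10.3% ± 0.752 in HFD fat and 9.35% ± 0.298 in LFD fat (SD, n = 7 each, exact permutation p = 0.00816, unadjusted), and the other 5 genes stayed above 0.05. The libraries left out held the lowest COX2 percent of HFD fat (6.44%) and the highest of LFD fat (10.4%), so leaving out each moved the groups apart. HFD replicates 4, 5 and 6 held 10.8% to 11.2%, and the other HFD libraries kept held 9.32% to 10.1%. With LFD replicate 4, these replicates are the fat libraries high in ATP8 described below, so only HFD fat kept such libraries.

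ATP8 stood at 2 separate levels among the libraries of each tissue. As a percent of the 6-gene sum it was 0.572% in liver HFD replicate 1, 0.517% in liver HFD replicate 2 and 0.568% in liver LFD replicate 6, while the other 13 livers lay between 0.0547% and 0.0861%. In fat it was 0.451% in HFD replicate 4, 0.673% in HFD replicate 5, 0.664% in HFD replicate 6 and 0.663% in LFD replicate 4, while the other 12 lay between 0.0494% and 0.131%. The high libraries rested on 4493 to 14090 ATP8 counts, and the lowest count of all was 28, in fat HFD replicate 2, where the 95% Wilson interval of the share, 0.000298%, ran from 0.000206% to 0.000430%. For the other 5 genes the half-width of the 95% interval was at most 3.57% of the value in any library; these intervals cover counting error only. The high libraries fall in all 4 groups, and they were picked out by these values, so no test was made on them.

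The same libraries were also highest in ND1 and ND2, genes for subunits of complex I that lie upstream of COX1. Relative to the 6-gene sum, ND1 was 5.07% to 5.76% in the 3 livers high in ATP8 and 2.17% to 3.43% in the other livers, and 3.58% to 4.46% in the 4 such fat libraries and 1.26% to 2.15% in the others. ND2 was 5.06% to 6.04% against 2.98% to 3.71% in liver and 4.54% to 5.23% against 1.77% to 4.34% in fat. The other way round, ND4, another complex I gene, was 6.62% to 7.18% in those 3 livers and 8.39% to 13.1% in the others. In fat it was 6.20% to 6.50% in the libraries high in ATP8. Only fat HFD replicate 3, at 5.43%, lay below them, and the rest lay between 9.49% and 15.9%. Of the 6 genes themselves, COX2 in fat followed the same libraries, with 10.4% to 11.2% of the sum against 6.44% to 10.1%. In liver the COX2 ranges overlapped, at 12.5% to 13.1% against 9.00% to 12.6%, and ATP6, the gene that shares bases with ATP8, did not separate these libraries in either tissue.

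**Figure D4:**
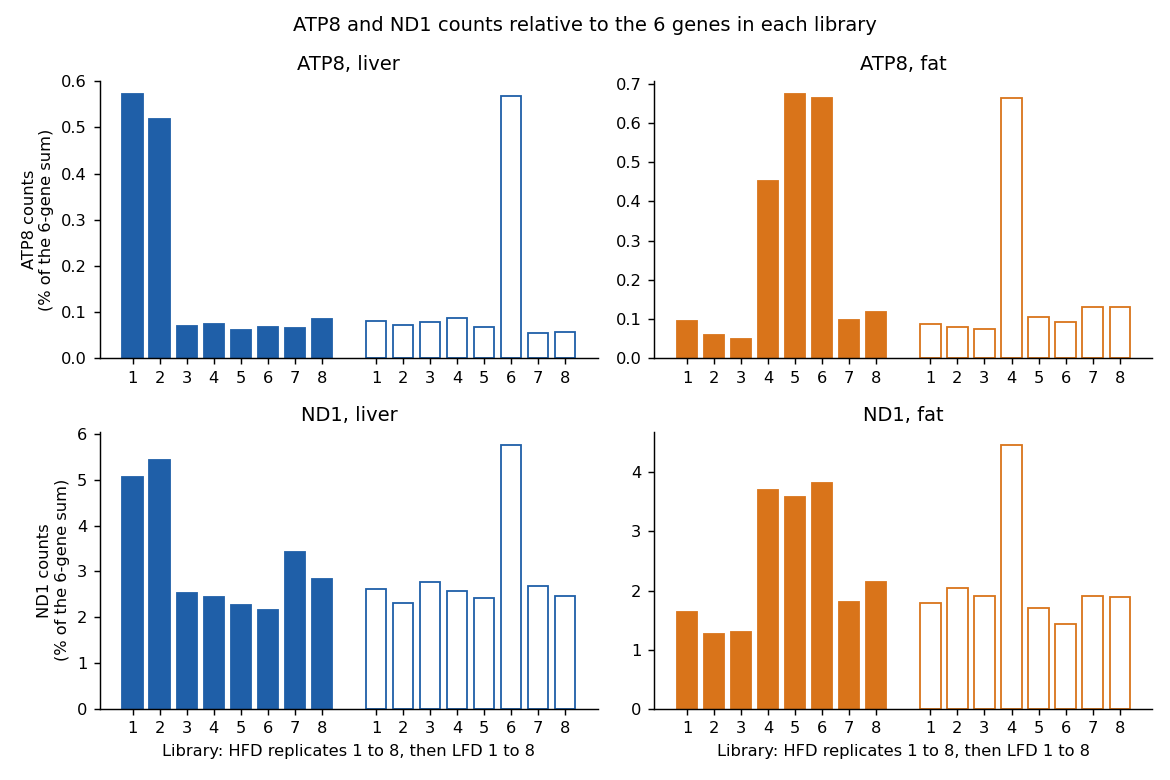
Counts of ATP8 (top) and ND1 (bottom) as a percent of the summed counts of the 6 genes, one bar per library, in liver (left) and fat (right), with HFD libraries filled and LFD libraries open. The 3 livers and 4 fat libraries with tall ATP8 bars also have the tallest ND1 bars of their tissue.

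The shares were stable between the sequencing runs of a liver. The share of the sum in the second run was 0.996 to 1.007 times that in the first over 16 livers. For COX2 it was 1.021 to 1.053 times that in the first, above 1 in all 16, and ATP8, with the fewest counts, ranged from 0.854 to 1.27. These shifts were small beside the spread between livers, where the coefficient of variation of the COX2 share was 32.5% in HFD and 25.8% in LFD.

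The genes whose share most followed that of the 6-gene sum from library to library were also mitochondrial. Among 12037 genes with a mean of at least 10 counts in each tissue, ND2 was most alike, with a Spearman correlation of 0.894 over 16 livers and 0.756 over 16 fat libraries, followed by ND1 with 0.762 and 0.697. Most opposite were SGSM1 (-0.524 and -0.574) and RASIP1 (-0.547 and -0.515), the latter a gene of endothelial cells. All shares of a library add up to the same total and the libraries that stood apart are included, so these correlations are a description only.

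For the other genes of the respiratory chain, the calls under TMM were as follows. Of the 7 complex I genes of the mitochondrial genome that could be matched, 2 were lower in liver, ND6 (log2 fold change -1.13, SE 0.28) and ND5 (-0.82, SE 0.24), and 0 were higher, with a median of -0.30. Without the 3 libraries that stood apart, 5 of these 7 were lower in liver and 0 higher (median -0.43), beside 40.4% of all genes lower. Their summed share was 0.483% to 1.49% in livers and 0.152% to 3.13% in fat. Among 9 nuclear genes of complex IV, 5 were lower in liver and 0 higher (median -0.38), such as COX5A (-0.65, SE 0.13), a structural subunit, and COX7C (-0.63, SE 0.20). Among 9 nuclear genes of ATP synthase, 5 were lower and 1 was higher (median -0.39). The lower ones included ATP5PF (-0.67, SE 0.17) and ATP5F1D (-0.62, SE 0.12), and the higher one was ATP5PB (0.82, SE 0.14), a subunit of the peripheral stalk. Of 7 nuclear genes of complex III, the partners of CYTB, 2 were lower in liver, CYC1 (-0.51, SE 0.16), which encodes cytochrome c1, and UQCRFS1 (-0.40, SE 0.14), the Rieske iron-sulfur protein, with a median of -0.03. These counts stand beside 38.5% of all genes lower and 40.9% higher in liver.

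Genes that act in the copying and expression of mitochondrial DNA were mostly higher in liver. Of 10 such genes 8 were higher in liver and 1, NRF1, was lower (-0.22, SE 0.08), with a median of 0.70, beside the 40.9% of all genes higher and 38.5% lower. PPARGC1A, a coactivator of mitochondrial biogenesis, took 0.00127% to 0.00371% of counts in livers and 0% to 4.85e-05% in fat (median 1.58e-05%). It passed the filter on low counts through liver, and its fitted value of 7.70 (SE 0.22) rests on few counts in fat. TFAM, which packs mitochondrial DNA and starts its transcription, was higher by 1.07 (SE 0.10), TWNK, the mitochondrial helicase, by 1.03 (SE 0.06), and POLRMT, the mitochondrial RNA polymerase, by 0.64 (SE 0.08). Under total count scaling the median of this list was 0.03, with 4 higher and 3 lower in liver (21% and 60.7% of all genes), and the medians of the other lists lay between -1.06 and -0.71, beside -0.64 for all genes. Between HFD and LFD pigs 0 genes of these 5 lists passed in either tissue.

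**Figure D5:**
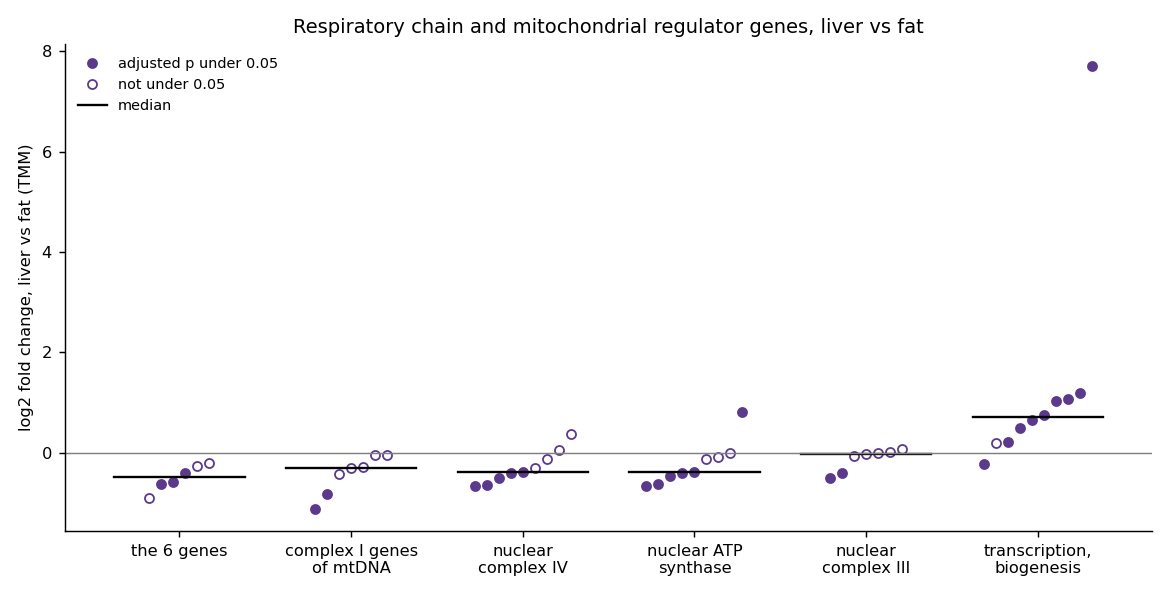
Log2 fold change, liver over fat, in edgeR with TMM for the 6 genes and for 5 lists of related genes (filled points adjusted p under 0.05, open points not, line at the median). The respiratory chain lists lie mostly at or below 0, and the transcription and biogenesis list lies mostly above 0, with PPARGC1A, which had few counts in fat, at 7.70.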

How the data were processed

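The deposited tables hold counts: per the labels and the study's methods, the authors prepared libraries with a TruSeq RNA kit v2, sequenced paired ends on an Illumina HiSeq, and named FastQC, STAR, RSEM and DESeq2 as tools and Sscrofa11.1 as the genome, with versions not given in the sources used here. The values are whole numbers without normalization, and how reads shared by genes were assigned is not given. The kit is not stated to mark strand. Liver counts of 2 runs were added, and all 48 columns were used. Tissue and fat group come from the sample labels, where high or low fat content is given under the tag shear force. Replicate numbers follow the order of the samples within each group. Symbols were taken from a reference table that pairs 15029 of the 31908 identifiers, and some listed genes had no match: of the lists, 7 of 9 other mitochondrial genes, 9 of 11 complex IV, 9 of 15 ATP synthase, 7 of 9 complex III and 10 of 10 biogenesis genes matched, and of the markers 3 of 6 for skeletal muscle, 2 of 3 for endothelium, 2 of 3 for erythrocytes and all of the others.

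Counts were tested in R 4.3.3 with edgeR 4.0.16 (filterByExpr, TMM, robust quasi-likelihood test, Benjamini-Hochberg adjustment over all genes tested, threshold 0.05), within each tissue and, for tissue and the interaction, on 4 group means of all 32 libraries, unpaired. Shares are percent of all counts of a library. Mean shares of every gene tested were also compared by the exact two-sided permutation test, whose smallest p was 0.000155, with the same adjustment. Percents of the 6-gene sum were compared by permutation in Python 3.11.15 with scipy 1.17.1. Scripts were tested on simulated data. Alternatives were DESeq2 1.42.0, limma-voom (limma 3.58.1), other scalings and filters, each run alone, the replicate block, and leaving out libraries. The 6 genes are named whole, with the 2 genes most like and the 2 most unlike their sum, by the lower (for unlike, the higher) of the 2 within-tissue correlations. The genes and lists were chosen with earlier results of these data known. Depth was lower in fat than in liver, and p-values measure the spread between libraries. The study's methods name 16 pigs for RNA sequencing and describe sampling of liver only, so that each fat library came from a separate pig is not stated in them.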

Additional observations from a re-analysis of the deposited data

Results flagged for a closer look

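Single libraries far from the other 7 of their group were looked for in 52 sets of 8 values with Dixon's test, which chance alone passes in about 2.6 of them, and 7 passed. Of these, 4 were ATP8 values: a share of 0.0231% in liver LFD replicate 6, where the other LFD livers lay between 0.00108% and 0.00397%, and of 0.0440% in fat LFD replicate 4, where the others lay between 0.00667% and 0.0114%. As a percent of the 6-gene sum, ATP8 was 0.568% in that liver and 0.663% in that fat library, against 0.0547% to 0.0861% and 0.0741% to 0.131% in the others of each group. The other 3 were in fat HFD replicate 2, the library with most counts in few genes. Its ATP6 share was 0.0791%, with the other HFD fat libraries between 1.34% and 2.05%, its COX3 share was 0.0805%, with the others between 1.78% and 2.81%, and COX2 made up 6.44% of the 6-gene sum, with the others between 9.32% and 11.2%. In the HFD groups, 2 livers and 3 fat libraries were high in ATP8, which a test for a single stray value does not single out.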

How the results depend on the processing

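For liver against fat, 6 of the 6 genes were called under total count scaling and 6 with TMM within each tissue, against 3 in the reported test. Of 14324 genes, these settings called 11704 (8697 lower in liver), 12339 (8976 lower in liver) and 11378 (5520 lower in liver). TMM within each tissue moved the median of all genes to -0.59. As each library was left out, 2 to 5 of the 6 were called (5 without fat HFD replicate 2), beside 11339 to 11770 of all genes. Total count scaling moved the median of all genes by 0.099 in the liver comparison, -0.12 in fat and -0.66 between tissues. Without the libraries that stood apart, 1 of 12 HFD against LFD tests of the make-up passed, in place of 0. No HFD against LFD or interaction call among the 6 genes was gained under any alternative or left-out library (0 in each). The HFD over LFD signs of genes that did not pass were not stable. In liver, COX1 turned to -0.0030 with limma-voom, -0.0031 with the replicate block and -0.025 without LFD replicate 7, where COX3 turned to -0.011, and total count scaling gave 0.081 for COX2, 0.060 for ATP6 and 0.083 for CYTB. In fat, limma-voom gave -0.21 for COX1, -0.33 for COX2 and -0.34 for CYTB, the replicate block -0.081, -0.043 and -0.098, and ATP6 and COX3 became 0.12 and 0.18 without HFD replicate 2 and LFD replicate 4. The cause was not tested. With single libraries left out, the values in liver ran from -0.071 to 0.069 for COX1, -0.12 to 0.078 for COX2, -0.10 to 1.60 for ATP8, -0.12 to 0.036 for ATP6, -0.056 to 0.091 for COX3 and -0.087 to 0.046 for CYTB, and in fat from -0.041 to 0.19 for COX1, -0.12 to 0.11 for ATP6, -0.084 to 0.16 for COX3 and -0.067 to 0.23 for CYTB. The replicate numbers did not pair the libraries in liver or across tissues. Deviations of same-numbered libraries correlated above 0.1 in 0 of 8 pairs in liver and 1 of 8 across tissues in each fat group. In fat, 5 of 8 same-numbered pairs of HFD and LFD libraries were above 0.1. Their mean correlation was 0.12, beside -0.018 for libraries of other numbers. In each of these 4 settings, at most 1 library correlated best with its own number. With the replicate block, 2 of the 6 genes were called between tissues, beside 11179 of 14324 genes, CYTB being lost (adjusted p = 0.113 in edgeR). CYTB was also lost in limma-voom without the block (adjusted p = 0.272). ATP8 had the fewest counts of the 6 genes, with a median of 732 in liver and 1469.5 in fat. It also stood at 2 levels in each tissue, and the cause of its wide errors was not tested.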
